A study of Mus musculus with 12 samples.

Results

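The genes described here make, break down or control polyamines, and were followed in tibialis anterior muscle: Odc1, Amd1, Amd2, Srm and Sms, which make polyamines, Smox and Sat1, which break them down, and Oaz1, Oaz2 and Azin1, which control the first enzyme. They were chosen by gene symbol, and all 10 are among the 24421 rows of the deposited count table. The study compared mRNA of this hindlimb muscle between 6 C57Bl/6 samples (WT) and 6 mdx/mTR samples. All came from males, 4 months of age. Dmd, the dystrophin gene, carries the mdx allele, and mTR stands for the telomerase RNA gene, listed as Terc. No group carried the mdx or the mTR change alone, so their contributions cannot be told apart. The labels number the samples within a strain without stating that each came from its own animal, so the p-values measure the spread between these samples.

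Polyamines are small, positively charged molecules that bind nucleic acids and are needed for growth and translation. ODC turns ornithine into putrescine. S-adenosylmethionine decarboxylase, encoded by Amd1 and Amd2, supplies the aminopropyl donor with which SRM makes spermidine and SMS makes spermine. SAT1 acetylates spermidine and spermine for export or oxidation, and SMOX oxidises spermine back to spermidine, releasing hydrogen peroxide. Antizymes (Oaz1, Oaz2) bind ODC and send it to the proteasome, and AZIN1, an ODC relative without enzyme activity, binds antizyme and so frees ODC. In skeletal muscle, Smox mRNA is known to fall in several forms of atrophy.

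WT libraries held 36903560 to 40981012 counts each, and mdx/mTR libraries 35136327 to 60330410. Levels are given in CPM, counts relative to the library total after scaling between libraries by edgeR's TMM method. A count of 0 allows up to 3 counts, which is 0.0460 to 0.0837 CPM (counting error only). Dmd was 228 to 244 CPM in WT and 35.2 to 56.4 CPM in mdx/mTR, without overlap. Terc had 2 counts in WT and 0 in mdx/mTR, too few to compare. The fibre markers Ckm, Acta1, Myh4, Mb, Pvalb, Tnnt3, Tnni2, Mylpf, Atp2a1 and Ttn summed to 205415 to 233731 CPM in WT and 158586 to 218212 CPM in mdx/mTR. With library totals in place of TMM, the median change over all tested genes moved by 0.16 (log2) towards higher in mdx/mTR, so changes are relative to the TMM scaling. In RNA of whole muscle, fewer cells of a type and less RNA per cell cannot be told apart.

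The count table holds almost no reads for 3 of the 10 genes, so these come first. Amd1 had 1 count in all 12 libraries together, in WT replicate 4. Amd2 had 0 counts. Oaz1 had 103 counts, 1 to 14 per library. These 3 genes have close copies in the genome. Amd1 (GRCm38 chr10:40287458-40302186, minus strand) has 8 exons, while Amd2 (chr10:35708675-35711892, minus strand) has a single exon on the same chromosome. Their coding sequences, of 1002 bases each, differ at 1 position (G796C, counted from the first base of the start codon, Amd1 base first), which is 99.9% identity with an identical run of 795 bases. The stretch around that position, bases 736 to 856 of the coding sequence in GENCODE M21 transcripts, is shown because it holds the only base that separates their coding sequences; the capital marks it.
Amd1: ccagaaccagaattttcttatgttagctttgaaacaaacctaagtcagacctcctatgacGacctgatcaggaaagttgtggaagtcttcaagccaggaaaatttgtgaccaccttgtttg
Amd2: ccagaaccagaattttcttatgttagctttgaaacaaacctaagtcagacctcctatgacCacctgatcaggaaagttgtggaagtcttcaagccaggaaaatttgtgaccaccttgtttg

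Oaz1 (chr10:80826656-80829290, plus strand) has a processed pseudogene, Oaz1-ps, on chromosome 17 (chr17:17345456-17346140, minus strand). The stretch below holds the site at which antizyme mRNA is known for its programmed frameshift: ribosomes that meet the stop codon TGA after TCC, both in capitals, shift by a base and read on when polyamines are plentiful. Over these 78 bases Oaz1 and Oaz1-ps had 0 mismatches, and Oaz1 and Oaz2 had 14.
Oaz1: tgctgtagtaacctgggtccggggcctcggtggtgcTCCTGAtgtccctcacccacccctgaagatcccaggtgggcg
Oaz1-ps: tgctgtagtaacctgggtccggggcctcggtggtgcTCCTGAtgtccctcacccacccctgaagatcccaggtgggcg
Oaz2: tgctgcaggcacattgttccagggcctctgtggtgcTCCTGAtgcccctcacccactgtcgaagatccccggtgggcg

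Sharing was also measured over whole transcripts: each gene's longest coding transcript was read in windows of 50 bases, and the share of windows found again in some other gene's transcripts was counted. It was 87.6% for Amd1, 85.7% for Amd2 and 52.2% for Oaz1, the highest of the 10. It was 42.2% for Odc1, spread over 15 other genes, and 28.7% for Sms, where Sms-ps holds all of these windows, so the levels of these 2 enzymes are uncertain. The share was 11.98% for Oaz2, 7.28% for Sat1 and 2.40% for Srm, and 0% for Smox and Azin1. Rows of other genes with high shares differed. Ass1, at 55.3%, had 0 counts in all libraries, while Dohh, at 66.2%, had 44.6 ± 2.06 CPM in WT, and Ahcy, at 77.0%, had 3.79 ± 0.363 CPM (SD, n = 6). How the authors treated reads that fit several places is not given in the sources used here, and its part in the low counts of Amd1, Amd2 and Oaz1 was not tested. These rows are therefore not read as absence of the enzyme or the antizyme.

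**Figure D1:**
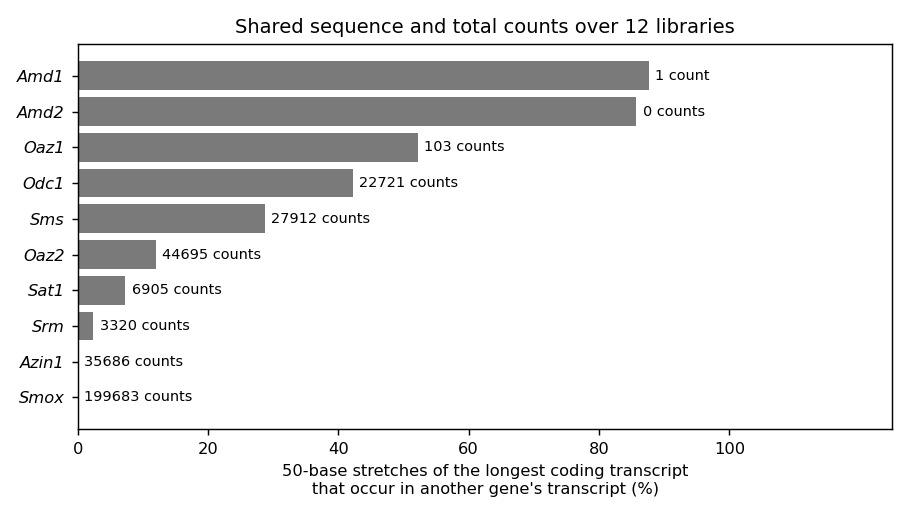
Share of 50-base windows (horizontal axis, percent) in the longest coding transcript of each gene that were found in other genes, with the gene's total counts over 12 libraries printed beside the bar. Amd1, Amd2 and Oaz1 have the 3 highest shares and the 3 lowest totals, while Smox and Azin1 have a share of 0%.

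The other 7 genes passed the filter on low counts. Of these, 3 rose, 3 fell and Srm did not pass the test (edgeR quasi-likelihood test, adjusted p under 0.05). Over all 13937 genes tested, 25.0% were called higher and 23.4% lower, 48.3% in all, so a call in either direction is common in this comparison. The genes that fell were Smox, Sms and Odc1. The genes that rose were Sat1, Azin1 and Oaz2, the last of them close to the threshold. The synthesis enzymes that passed, Sms and Odc1, both fell, while the breakdown enzymes Smox and Sat1 changed in opposite directions.

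**Figure D2:**
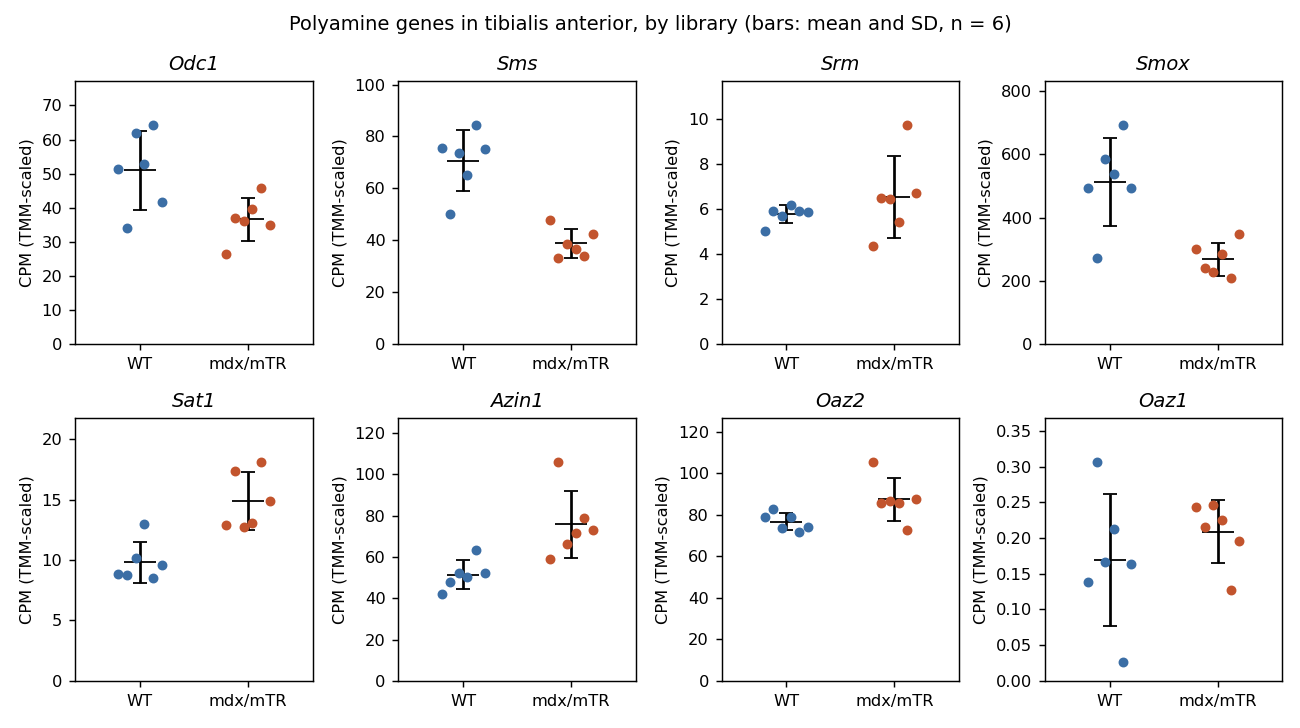
TMM-scaled CPM of 8 polyamine genes (vertical axes, each from 0) in 6 WT and 6 mdx/mTR libraries; points are libraries and black bars are mean and SD. Sms separates the groups, Smox and Odc1 are lower and Sat1 and Azin1 higher in mdx/mTR with some overlap, and Oaz1 stays under 0.31 CPM everywhere.

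Of the synthesis enzymes, Sms (chrX:157443855-157492287, minus strand), which adds the last aminopropyl group to make spermine, fell without overlap between the groups. Its level was 50.2 to 84.5 CPM in WT (median 74.4) and 33.3 to 47.9 CPM in mdx/mTR (median 37.6). All 6 mdx/mTR libraries lay below all 6 WT libraries, the only such gene of the 7. Over all genes tested, 25.2% had groups that did not overlap, 12.6% in this direction. The mean went from 70.7 ± 11.8 to 38.8 ± 5.55 CPM (SD, n = 6 each), a log2 fold change of -0.86 ± 0.12 (SE), or 54.9% of WT, with an edgeR adjusted p of 5.7e-05.

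Odc1 (chr12:17544794-17551505, plus strand), the first enzyme of the pathway, fell less. It ranged from 34.0 to 64.3 CPM in WT (median 52.1) and from 26.3 to 45.8 CPM in mdx/mTR (median 36.5). The groups overlapped: only mdx/mTR replicate 1 lay below the lowest WT library. The log2 fold change was -0.48 ± 0.15 (SE; edgeR adjusted p 0.0181), from 51.0 ± 11.6 to 36.6 ± 6.36 CPM. With library totals alone the change was -0.31 and did not pass (edgeR adjusted p 0.129).

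Srm (chr4:148591503-148594993, plus strand), which makes spermidine, did not follow Sms. It was 5.03 to 6.18 CPM in WT (median 5.91) and 4.36 to 9.76 CPM in mdx/mTR (median 6.47). WT libraries were close together, with a coefficient of variation of 6.90%, while mdx/mTR libraries varied by 27.6%, the lowest of them below and 4 of them above every WT library. The log2 fold change was 0.18 ± 0.15 (SE; edgeR adjusted p 0.346). It was 0.03 without mdx/mTR replicate 5, the highest library.

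Of the breakdown enzymes, Smox (chr2:131491496-131525922, plus strand), the spermine oxidase, fell. Its row stood highest of the 10 in the deposited counts. The low rows of Amd1, Amd2 and Oaz1 and the uncertain levels of Odc1 and Sms limit that ranking. Smox had 274 to 693 CPM in WT libraries (median 515) and 208 to 347 CPM in mdx/mTR libraries (median 262). Of the 6 mdx/mTR libraries, 3 lay below every WT library, and the overlap came from WT replicate 2 at 274 CPM, since the next WT library had 494 CPM. The mean went from 513 ± 139 to 268 ± 52.3 CPM, a log2 fold change of -0.93 ± 0.18 (SE; edgeR adjusted p 9.4e-04), or 52.3% of WT. Without WT replicate 2 it was -1.06.

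WT replicate 2 was also the lowest WT library for Odc1 (34.0 CPM) and Sms (50.2 CPM). In the same library Myh1, a fast myosin gene, stood at 17094 CPM, where the remaining WT libraries had 7864 to 9929 CPM. Myh4, another fast myosin gene, went the other way, at 49911 CPM (63727 to 73019 CPM in the rest of WT). Its summed endothelial markers were 568 CPM (425 to 479 CPM in the rest of WT), and its summed T and B lymphocyte markers 1.90 CPM (0.444 to 1.15 CPM in the rest). Alas2, a red cell gene, stood at 41.6 CPM there and at 11.5 to 24.2 CPM in the rest. Sums were also highest of WT there for fibro-adipogenic progenitors and fibroblasts (1668 CPM, the rest 938 to 1604) and for pericytes and smooth muscle (439 CPM, the rest 318 to 433). So was the Schwann cell sum (53.3 CPM, the rest 41.8 to 51.5). The summed fibre markers were lowest in this library too, at 205415 CPM (209684 to 233731 CPM in the rest), as were satellite cell and myoblast markers (23.6 CPM, the rest 24.1 to 33.8). Macrophage, neutrophil and adipocyte sums were neither highest nor lowest there. The part of these in its polyamine values was not tested. Without it the log2 fold changes were -0.57 for Odc1 and -0.95 for Sms, and all 3 falls still passed.

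Sat1 (chrX:155213132-155216449, minus strand), the acetylating enzyme that starts the other route of breakdown, rose. It was 8.49 to 13.0 CPM in WT (median 9.25) and 12.7 to 18.2 CPM in mdx/mTR (median 14.0). Only WT replicate 4, at 13.0 CPM, reached into the mdx/mTR range, and 4 of 6 mdx/mTR libraries lay above it. The mean went from 9.80 ± 1.67 to 14.9 ± 2.40 CPM (0.60 ± 0.12 SE on the log2 scale, edgeR adjusted p 0.0012), a 1.52-fold level.

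Of the genes that control ODC, Azin1 (chr15:38487427-38519266, minus strand), the antizyme inhibitor, rose. Its level was 41.8 to 63.2 CPM in WT (median 51.2) and 59.1 to 106 CPM in mdx/mTR (median 72.2). In mdx/mTR, 5 of 6 libraries were above every WT library, with replicate 2 highest and replicate 1 the exception. The log2 fold change was 0.56 ± 0.13 (SE; edgeR adjusted p 0.0024), or from 51.2 ± 7.005 to 75.7 ± 16.3 CPM.

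Oaz2 (chr9:65668001-65690300, plus strand), an antizyme, rose by a small amount. It was 71.9 to 82.8 CPM in WT (median 76.5) and 72.7 to 106 CPM in mdx/mTR (median 86.3), where replicate 1 was highest and replicate 5 lowest. The log2 fold change was 0.19 ± 0.07 (SE), with an edgeR adjusted p of 0.0447. This call did not hold under 14 of 21 alternatives, where the adjusted p reached 0.0953, and without mdx/mTR replicate 1 the change was 0.13. Oaz1 had means of 0.169 ± 0.0920 CPM (WT) and 0.209 ± 0.0439 CPM (mdx/mTR), a difference within the spread of the libraries. Without a filter on low counts its log2 fold change was 0.30 ± 0.38 (SE; edgeR adjusted p 0.562).

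The authors' deposited table gives log2 fold changes of -0.89 for Smox, -0.85 for Sms and -0.47 for Odc1. It lists 0.57 for Sat1, 0.54 for Azin1 and 0.16 for Srm in the same authors' deposited table. For Oaz2 the authors' deposited table has 0.18 with an adjusted p of 0.0578, which is on the other side of the threshold from the 0.0447 of edgeR.

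Levels can be compared between genes only per length, here as CPM per kilobase of the longest coding transcript. On that scale Smox stood highest of the 7 tested genes in WT at 223 ± 60.3 (SD, n = 6). Oaz2 followed at 41.6 ± 2.27, Odc1 at 23.1 ± 5.27 and Sms at 19.0 ± 3.16. Azin1 had 10.5 ± 1.44, Sat1 8.44 ± 1.44 and Srm 4.32 ± 0.298 CPM per kilobase. On this length the SD ranges of Odc1 and Sms overlapped, as did those of Azin1 and Sat1. In mdx/mTR the spacing was narrower, with Smox at 117 ± 22.8, Oaz2 at 47.4 ± 5.72, Odc1 at 16.6 ± 2.88, Azin1 at 15.5 ± 3.34, Sat1 at 12.8 ± 2.06, Sms at 10.4 ± 1.49 and Srm at 4.89 ± 1.35 CPM per kilobase. On this scale Sms stood above Azin1 and Sat1 in WT and below them in mdx/mTR. This crossing was not seen with the median transcript length. There Sms stood below Azin1 in both groups (45.9 and 68.6 CPM per kilobase in WT, 25.2 and 101.4 in mdx/mTR) and above Sat1 in both (8.44 in WT, 12.8 in mdx/mTR). The SD ranges in WT also stood apart there for Odc1 (77.0 ± 17.5) and Sms (45.9 ± 7.64). They stood apart for Azin1 (68.6 ± 9.38) and Sat1 (8.44 ± 1.44) too.

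Ratios of counts within a library need no scaling between libraries and set opposing enzymes against each other. Of 6 ratios, 3 were chosen after the counts were seen, because Oaz1 has few counts: Odc1 to Oaz2, Azin1 to Oaz2 and Azin1 to Odc1. All were tested with 2-sided exact permutation tests adjusted by Benjamini-Hochberg over the 6, for which the smallest p possible is 0.00216. The ratio of Smox to Sat1 counts was 31.3 to 81.6 in WT, while mdx/mTR libraries had 11.4 to 23.4. All 6 mdx/mTR libraries were below all 6 WT libraries, and the log2 ratio went from 5.67 ± 0.468 to 4.17 ± 0.432 (SD, n = 6; exact permutation p 0.00216, adjusted p 0.00649), a ratio 2.84-fold lower.

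Azin1 counts were 0.815 to 1.41 times those of Odc1 in WT and 1.72 to 2.87 times in mdx/mTR. The groups again did not overlap, and the log2 ratio went from 0.03 ± 0.314 to 1.04 ± 0.275 (SD, n = 6; exact permutation p 0.00216, adjusted p 0.00649). Azin1 counts thus gained on Odc1 counts 2.02-fold, which is a statement about mRNA and not about the proteins. The ratios Smox to Sat1 and Azin1 to Odc1 each set a gene called lower against a gene called higher in these same counts. Their p-values are therefore no support apart from those calls, and Azin1 to Odc1 was also chosen after the counts were seen. Odc1 against Oaz2 went from -0.62 ± 0.408 to -1.27 ± 0.432 on the log2 scale (exact permutation p 0.0281, adjusted p 0.0563), which did not pass. It did pass without WT replicate 2 (difference -0.776, exact permutation adjusted p 0.0173) and without mdx/mTR replicate 5 (-0.764, exact permutation adjusted p 0.0346). Azin1 against Oaz2 went from -0.59 ± 0.257 to -0.22 ± 0.402 (exact permutation adjusted p 0.135), and passed without mdx/mTR replicate 1 (difference 0.492, exact permutation adjusted p 0.0346). Against Oaz1, the log2 ratio of Odc1 differed by -1.05 (exact permutation adjusted p 0.135; -1.39 with adjusted p 0.0325 without WT replicate 2) and that of Azin1 by -0.03 (exact permutation adjusted p 0.974), with the few Oaz1 counts limiting both.

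**Figure D3:**
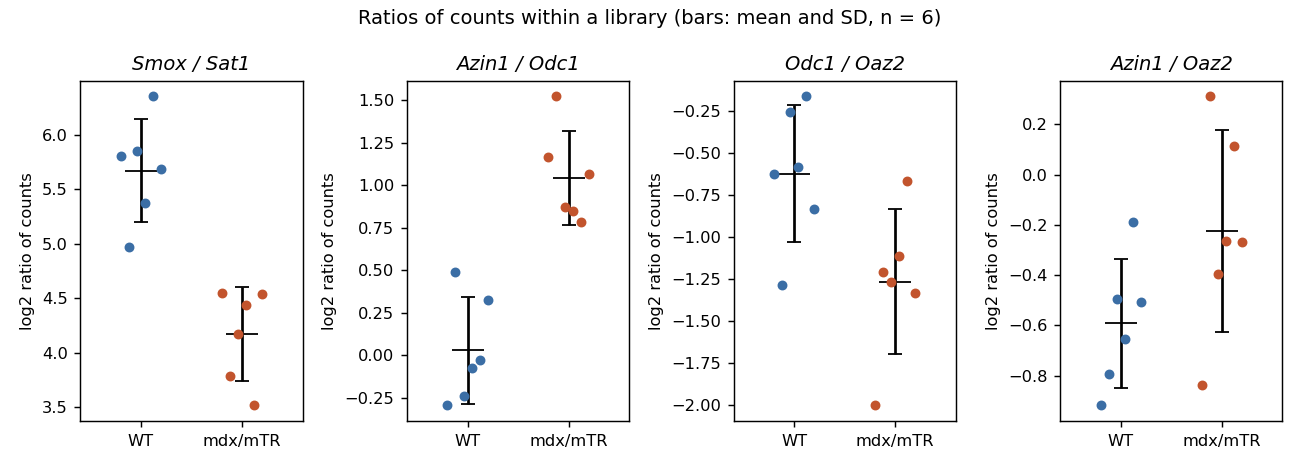
Log2 ratio of counts within each library (vertical axes) for 4 gene pairs in 6 WT and 6 mdx/mTR libraries; points are libraries and black bars are mean and SD. Smox to Sat1 lies at 4.97 to 6.35 in WT and 3.52 to 4.55 in mdx/mTR, and Azin1 to Odc1 also separates the groups, while the ratios to Oaz2 overlap.

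Of the 7 tested genes, Smox and Odc1 varied most among WT libraries, with coefficients of variation of 27.0% and 22.8% against 5.45% for Oaz2. Their levels rose and fell together across these 6 libraries, from WT replicate 2 with 274 CPM of Smox and 34.0 CPM of Odc1 to WT replicate 5 with 693 and 64.3 CPM. Pearson's r of log2 CPM was 0.92 (exact permutation p 0.00139, adjusted p 0.00833 over 6 relations) and Spearman's rho was 1 (exact permutation p 0.00278, adjusted p 0.0167). With the libraries of most extreme Smox (WT replicates 2 and 5) left out, r was 0.85. This pair was chosen after its values were seen, and both values of a library share its scaling factor.

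In mdx/mTR the same pair had r -0.59 (exact permutation p 0.199, adjusted p 0.298) and rho -0.71 (exact permutation p 0.136, adjusted p 0.263), and r -0.54 without replicates 5 and 6. Replicate 5 had the lowest Smox (208 CPM) and the highest Odc1 (45.8 CPM) of that group. Whether the relation differs between the groups was not tested. Smox with Sms had r 0.92 in WT (exact permutation p 0.0236, adjusted p 0.0708; rho 0.54, exact permutation p 0.297, adjusted p 0.297), but r -0.29 without WT replicates 2 and 5, on which it rests. In mdx/mTR it had r 0.72 (exact permutation p 0.106, adjusted p 0.211; rho 0.66, exact permutation p 0.175, adjusted p 0.263), and 0.65 without replicates 5 and 6. Odc1 with Azin1 had r 0.45 in WT (exact permutation p 0.351, adjusted p 0.351; rho 0.71, exact permutation p 0.136, adjusted p 0.263) and r 0.50 in mdx/mTR (exact permutation p 0.301, adjusted p 0.351; rho 0.60, exact permutation p 0.242, adjusted p 0.290). Without the libraries farthest from the median (WT replicates 2 and 6, mdx/mTR replicates 1 and 5) these were 0.87 and 0.05.

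**Figure D4:**
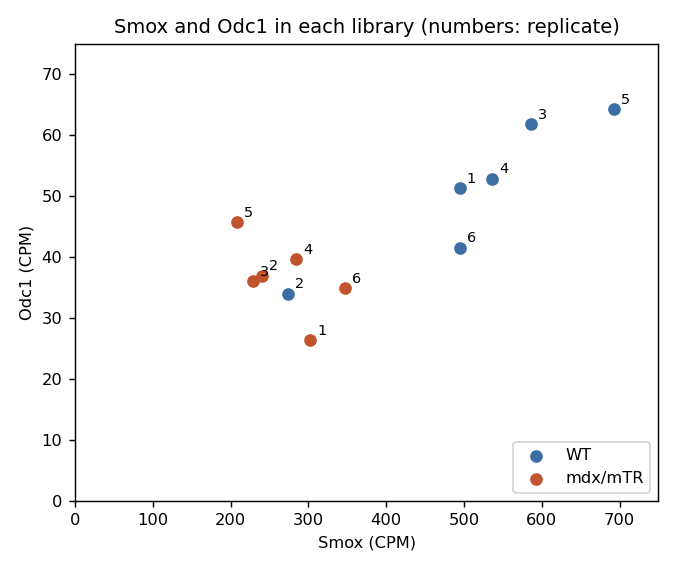
Odc1 (vertical axis, CPM) against Smox (horizontal axis, CPM) in each library, numbered by replicate. The 6 WT libraries run from 274 CPM of Smox and 34.0 CPM of Odc1 up to 693 and 64.3 CPM, and the mdx/mTR libraries lie together at 208 to 347 CPM of Smox.

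The wider pathway was followed in 42 further genes, all present in the table, of which 32 were tested. Of these, 6 rose, 9 fell and 17 did not pass the test (edgeR, adjusted p under 0.05). That is 15 of 32 called, near the share over all genes tested. There 48.3% were called, 25.0% higher and 23.4% lower, and the counts of single lists below stand beside these shares. The median log2 fold change of the 32 genes was -0.05, beside 0.01 for all genes tested. With library totals alone, 8 rose and 4 fell. That scaling moved all genes the same way, from 3479 higher and 3257 lower to 5596 higher and 1560 lower.

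In arginine and ornithine supply, 2 of 7 tested genes rose and 3 fell. Asl, argininosuccinate lyase, which makes arginine, rose from 4.35 ± 0.159 to 9.35 ± 1.14 CPM (1.10 ± 0.08 SE on the log2 scale, edgeR adjusted p 5.8e-07). Every mdx/mTR library was above every WT library. Slc7a1, a cationic amino acid transporter, rose from 4.69 ± 0.464 to 8.01 ± 2.40 CPM (0.77 ± 0.17 SE, edgeR adjusted p 0.00211), while its relative Slc7a2 fell from 117 ± 19.6 to 84.9 ± 7.41 CPM (-0.47 ± 0.10 SE, edgeR adjusted p 0.00215). Slc25a15, the mitochondrial ornithine carrier, fell by 0.24 on the log2 scale (edgeR adjusted p 0.0031), and Slc25a2, named after its values were seen, was at most 0.330 CPM on average and fell with an edgeR adjusted p of 0.0486, which ran from 0.00904 to 0.103 over the alternatives.

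Arg1, the arginase that makes ornithine and is known from repair-type macrophages, had 0 to 6 counts in each WT library. In mdx/mTR it had 3 to 11 counts in 5 libraries and 461 counts, or 9.82 CPM, in replicate 5, so it was not tested. The same library had the highest summed macrophage markers, 784 CPM (the rest of its group had 282 to 535 CPM), and the highest summed neutrophil markers, 18.6 CPM (the rest 1.87 to 3.80 CPM). Other sums were highest of its group there too: fibro-adipogenic progenitors and fibroblasts (4511 CPM, the rest 2296 to 4294), and satellite cells and myoblasts (113 CPM, the rest 47.4 to 82.6). So were T and B lymphocytes (3.86 CPM, the rest 1.78 to 3.43) and pericytes and smooth muscle (384 CPM, the rest 323 to 363). Endothelial, Schwann cell, adipocyte and red cell sums were not highest there. Its summed fibre markers were the lowest of all 12 libraries, 158586 CPM. It was also the highest of its group for Srm (9.76 CPM), Sat1 (18.2 CPM) and Slc7a1 (11.3 CPM). Without this library the log2 fold change was 0.53 for Sat1 and 0.65 for Slc7a1, and both still passed.

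**Figure D5:**
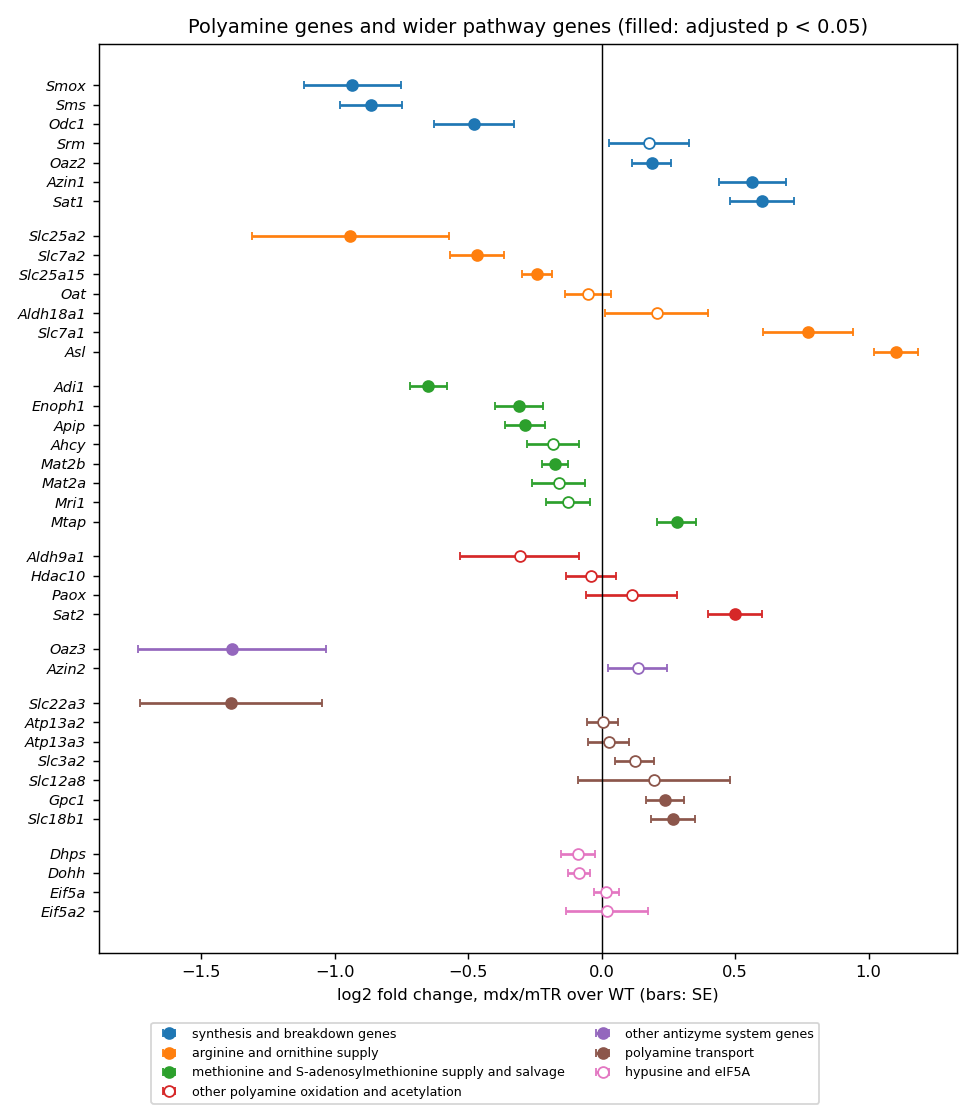
Horizontal axis: log2 fold change, mdx/mTR relative to WT, with SE bars, for the 7 tested synthesis and breakdown genes and 32 tested genes of the wider pathway, coloured by list; filled points have an edgeR adjusted p under 0.05. Smox, Sms and Odc1 lie to the left and Sat1 and Azin1 to the right, and the 4 eIF5A genes lie near 0.

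In methionine supply and salvage, which provides the aminopropyl donor and recycles its remnant, 4 of 8 tested genes fell and 1 rose. Mtap, which cleaves the methylthioadenosine left by SRM and SMS, rose from 20.3 ± 1.48 to 24.7 ± 2.60 CPM (0.28 ± 0.07 SE, edgeR adjusted p 0.0060). Adi1, a later enzyme of the same salvage route, fell from 63.2 ± 4.18 to 40.3 ± 4.09 CPM without overlap (-0.65 ± 0.07 SE, edgeR adjusted p 8.7e-06). Apip, another salvage enzyme, fell by 0.29 on the log2 scale (edgeR adjusted p 0.0057). Mat2b, a regulatory subunit of the enzyme that makes S-adenosylmethionine, fell by 0.18 (edgeR adjusted p 0.0096), and Enoph1, named after its values were seen, fell by 0.31 (edgeR adjusted p 0.0112). With library totals alone, the falls of Mat2b, Apip, Slc25a15, Enoph1 and Slc25a2 did not pass (edgeR adjusted p 0.639, 0.110, 0.208, 0.229 and 0.0967).

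Among other genes of oxidation and acetylation, 1 of 4 tested rose: Sat2, a relative of Sat1, from 2.45 ± 0.232 to 3.45 ± 0.343 CPM with no overlap (0.50 ± 0.10 SE, edgeR adjusted p 0.0012). Paox, which oxidises the acetylated polyamines that SAT1 makes, had means of 1.06 ± 0.143 CPM (WT) and 1.14 ± 0.241 CPM (mdx/mTR) and did not pass (0.11, edgeR adjusted p 0.611). Of the other antizyme system genes, Azin2 did not pass, and Oaz3 fell from 0.435 ± 0.175 to 0.172 ± 0.0981 CPM (edgeR adjusted p 0.0055). Oaz3 had few counts, 10 to 27 per WT library and 4 to 13 per mdx/mTR library. It met the filter on low counts mainly through WT, where it was higher, so a fall was the favoured direction and the call is limited.

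In polyamine transport, 2 of 7 tested genes rose and 1 fell. Gpc1, a heparan sulphate proteoglycan linked to polyamine uptake, rose from 453 ± 35.8 to 534 ± 48.8 CPM (0.24 ± 0.07 SE, edgeR adjusted p 0.0140; 0.0502 with the replicate number as a block). Slc18b1, a vesicular polyamine transporter, rose by 0.27 ± 0.08 SE (edgeR adjusted p 0.0155), and Slc22a3, an organic cation transporter, fell from 1.13 ± 0.501 to 0.421 ± 0.159 CPM (-1.39 ± 0.34 SE, edgeR adjusted p 0.0042). Of the 4 genes of hypusine and eIF5A, where spermidine modifies a translation factor, 0 passed in edgeR, and 0 had an unadjusted p under 0.05. Eif5a itself stood at 225 ± 13.7 CPM in WT and at 227 ± 5.89 CPM in mdx/mTR (0.02 ± 0.05 SE on the log2 scale, edgeR adjusted p 0.783). With library totals alone Eif5a passed, at 0.18 (edgeR adjusted p 0.00929).

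Markers of several other cell types moved with the groups. The counts below stand beside the shares over all genes tested, 25.0% called higher and 23.4% lower. All 10 macrophage markers were tested and higher in mdx/mTR, summing to 96.6 to 166 CPM in WT and 282 to 784 CPM in mdx/mTR. Of 8 markers of fibro-adipogenic progenitors and fibroblasts, 6 were higher, and their sums were 938 to 1668 and 2296 to 4511 CPM. Satellite cell and myoblast markers were higher for 5 of 6 in the table, with sums of 23.6 to 33.8 and 47.4 to 113 CPM. The exception was the satellite cell marker Pax7 (0.13 on the log2 scale, edgeR adjusted p 0.436). Chrng and Tmem8c had 15 and 13 counts in all WT libraries together, so they met the filter on low counts through mdx/mTR. Neutrophil markers were higher for 2 of 3 tested (sums 0.639 to 2.08 and 1.87 to 18.6 CPM) and T and B lymphocyte markers for 1 of 2 (0.444 to 1.90 and 1.78 to 3.86 CPM). The Schwann cell list moved the other way. Its markers were lower for 4 of 5, with sums of 41.8 to 53.3 CPM in WT and 22.3 to 34.6 CPM in mdx/mTR that did not overlap. Endothelial markers were lower for 3 of 6 and higher for 1 (425 to 568 and 349 to 469 CPM). Pericyte and smooth muscle markers were lower for 2 of 5 and higher for 1 (318 to 439 and 323 to 384 CPM). In both of these lists the calls were mixed and the sums overlapped between the groups. Of the 10 fibre markers, 1 was higher and 3 were lower. Of 3 adipocyte markers tested in edgeR, 0 passed and 0 had an unadjusted p under 0.05 (sums 6.97 to 10.9 and 4.62 to 15.4 CPM). Of the 5 red cell markers, the globin genes Hba-a1, Hba-a2, Hbb-bs and Hbb-bt were listed at 0 in every library, while Alas2 had 9.82 to 41.6 CPM. No marker of the other lists that is in the table was at 0 in all libraries. The part of these cells in the changes of Sat1, Azin1, Smox, Sms and Odc1 was not tested.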

How the data were processed

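Whole-number counts per gene symbol were deposited by the authors for 12 libraries of tibialis anterior mRNA (6 WT, 6 mdx/mTR). Per the submitters' processing notes, FastQC, STAR, DESeq2 and the mm10 build were used; the counter, the annotation and the strand setting are not given in the sources used here. Per the file headers, the authors' deposited table for this comparison lists a mean normalised signal, a log2 fold change with its SE, a test score and p-values.

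Counts were tested with edgeR 4.0.16 in R 4.3.3 (filterByExpr, 13937 of 24421 rows; TMM; quasi-likelihood test with group as the only term; Benjamini-Hochberg over all tested genes, threshold 0.05). SE is the log2 fold change divided by the square root of F. Ratios and relations used exact permutation tests in scipy 1.17.1, relations on log2(CPM + 0.5). Sequence sharing and positions came from GENCODE M21 (GRCm38). The edgeR, limma 3.58.1 and DESeq2 1.42.0 fits were tested on simulated data. Alternatives were other filters and scalings, DESeq2, limma-voom, a replicate block and leaving out each library. The Oaz2 and Azin1 to Odc1 ratios and the Smox relations were added after seeing the data. The genes and lists were chosen with earlier results of these data known. Beyond the 10 genes, Dmd, Terc, Arg1 and Eif5a, the rule named up to 4 genes with the smallest p per list among those past the threshold. Of the ratios and relations first chosen, those with Amd1 or Amd2 could not be computed. Within groups, chi-square per degree of freedom between libraries was at least 9.10, more than counting error alone gives, so none is the same library sequenced again. It cannot show whether each library came from its own animal.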

Additional observations from a re-analysis of the deposited data

Results flagged for a closer look

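Each set of 6 values in a group was screened for an extreme library with Dixon's gap-to-range ratio at its 95% critical value. The screen covered 66 sets and picked out 4, where chance gives about 3.3. Arg1 reached 9.82 CPM in mdx/mTR replicate 5, while the rest of that group had 0.0613 to 0.191 CPM (gap-to-range ratio 0.987). Sat1 stood at 12.97 CPM in WT replicate 4, with 8.49 to 10.1 CPM in the rest of WT (0.634). Slc7a1 was lowest in WT replicate 1, at 3.81 CPM, with 4.66 to 5.16 CPM in the rest of WT (0.631). The log2 ratio of Azin1 to Oaz1 was 11.2 in WT replicate 5, where Oaz1 had 1 count, and 7.28 to 8.31 in the rest of WT (0.740).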

How the results depend on the processing

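Smox, Sms, Sat1 and Azin1 kept their direction and stayed past the threshold under all 21 alternatives, with log2 fold changes of -1.06 to -0.78, -0.95 to -0.71, 0.50 to 0.77 and 0.44 to 0.73. Odc1 lost its call with library totals alone and Oaz2 under 14 alternatives, and Srm passed under none. The genes called were 2 to 3 higher and 3 lower in the fits that left out a library, and 3 and 3 with a replicate block. The block left 5 of the wider pathway genes higher. Deviations of same-numbered libraries correlated at -0.155 to 0.354, with 2 of 6 above 0.1, and the labels give no pairing, so replicate numbers were taken as names only. Wider pathway genes lower were 4 with library totals alone and 8 to 10 without a library. Eif5a ran from -0.00755 (without WT replicate 4) to 0.0397 without a library, and -0.00375 without WT replicate 2 and mdx/mTR replicate 5 together, an alternative added after seeing the data.

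For the ratios, the sign-flip test of the replicate block gave -1.50 for Smox to Sat1 and 1.01 for Azin1 to Odc1, each with adjusted p 0.0625 and the smallest p it allows, 0.0312. The difference of medians was 0.160 for Azin1 to Oaz1. Fits without a library ran from -1.39 to -0.495 for Odc1 to Oaz1, -0.285 to 0.507 for Azin1 to Oaz1, -0.776 to -0.496 for Odc1 to Oaz2 and 0.262 to 0.492 for Azin1 to Oaz2. Azin1 to Oaz1 was positive without WT replicate 5 (0.507) and without mdx/mTR replicates 1 (0.0850), 3 (0.0553) and 4 (0.00691); the cause was not tested. Without the pair of libraries farthest from the median, r was 0.871 and 0.0457 for Odc1 with Azin1 in WT and mdx/mTR, and -0.291 for Smox with Sms in WT. The sum of Amd1 and Amd2, its ratio to Srm and relations with Amd1 were not run, since these rows hold 1 count. Oaz1, Amd1, Amd2 and Arg1 did not pass the filter on low counts, and why their rows are low was not tested.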
